A study of Mus musculus with 12 samples.

Results

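The response to rh Bri2 BRICHOS R221E that wild-type (WT) and App NL-G-F mice share was examined by setting the 6 libraries of treated mice against the 6 libraries of vehicle (veh)-treated mice, with genotype as a covariate, so that all 12 libraries of the series entered. The comparison asks which genes and gene programs of cortical CD11b-positive cells moved the same way with the treatment whether or not the mice had amyloid pathology. Each library is the mRNA of the CD11b-positive cells of 1 mouse, taken with magnetic beads from papain-digested cerebral cortex, and the 4 groups of 3 mice were WT given veh, WT given the protein, App NL-G-F given veh and App NL-G-F given the protein. App NL-G-F mice are knock-in mice whose own App gene carries a humanized amyloid-β (Aβ) sequence with the Swedish, Iberian and Arctic mutations, under App's own promoter. All mice were male and 9 months old at the start, received 24 intravenous injections over 12 weeks of phosphate-buffered saline (PBS, the vehicle) or 10 mg/kg of the protein, and were then left for 4 weeks without treatment. The vehicle held no inactive protein, so that the effect of this chaperone and that of any injected protein cannot be told apart.

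Rh Bri2 BRICHOS R221E is a recombinant human form of the BRICHOS domain of the membrane protein Bri2, which Itm2b encodes. The domain is a chaperone that binds growing Aβ fibrils, and the amino acid exchange in this variant keeps it monomeric. Microglia are the resident macrophages of the brain parenchyma. They engulf debris and Aβ, release cytokines, and display peptides on major histocompatibility complex (MHC) class II when activated. In mice with plaques they enter a state known as disease-associated microglia (DAM), in which Apoe, Axl and lysosomal genes are high and homeostatic genes such as P2ry12 are low.

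Between 12433402 and 17889654 reads per library were counted on genes, and a floor of 3 counts stood at 0.168 to 0.241 CPM, the count scaled to library size, with counting error alone in view. The microglial label was borne out by its markers, since all 15 genes of the microglia list were detected and P2ry12, a purine receptor of homeostatic microglia, stood at 1279 to 2864 CPM. Marker genes of other cells were present as well, at levels that varied between groups. The summed level of 16 astrocyte markers was 851 to 1152 CPM in veh-treated WT, 902 to 1668 in treated WT, 1959.8 to 6112 in veh-treated App NL-G-F and 905 to 2560.2 in treated App NL-G-F mice. For 15 choroid plexus markers the corresponding ranges were 1540.0 to 6479.9, 5952 to 10535, 982 to 2949 and 869.7 to 1436 CPM. For 12 neutrophil markers they were 43.9 to 516, 83.3 to 491, 16.5 to 39.04 and 13.97 to 36.00 CPM, with the high values in veh-treated WT replicates 1 and 2 and treated WT replicates 2 and 3. None of these markers was at 0 in all libraries, and their part in the results was not tested beyond the fits with a marker score as covariate given below. In such bulk samples, fewer cells of a type and less RNA per cell cannot be told apart.

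No gene passed the test for a treatment effect over both genotypes after adjustment for multiple testing. Of 15425 genes tested with edgeR's quasi-likelihood test, 0 had a Benjamini-Hochberg adjusted p under 0.05, and the lowest adjusted p was 0.800. At an unadjusted p under 0.05, 947 genes differed (6.14% of those tested), of which 489 (3.17%) were higher and 458 (2.97%) lower in treated mice, whereas 5% of the tested genes would be 771. Limma-voom gave 0 genes after adjustment as well, and DESeq2's Wald test gave 8. Below, a gene is called higher or lower only for an unadjusted p under 0.05, and every such call has an adjusted p of 0.800 or above from edgeR. The differences were small, with a median absolute log2 fold change of 0.23 among the 947 genes. A difference over 2-fold, which the study required beside an unadjusted p, was seen in 57 of them, 48 higher and 9 lower, and 43 of these 57 had a mean level under 1 CPM, as had 11.4% of all tested genes.

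Fold changes in the genotypes were more often of opposite than of the same sign. Across the 15425 genes, 6618 (42.9%) had fold changes of the same sign in both genotypes, and the genotypes' log2 fold changes, which share no library, had a Pearson r of -0.31 and a Spearman rho of -0.19 (across genes, which are not independent replicates). Each genotype was then tested by its own contrast in 1 joint model of the 4 group means, so that both p-values share an estimate of spread. Genes were counted as moving the same way when both genotypes had an unadjusted p under 0.05 and the same sign. Such genes numbered 33 (0.214% of the tested genes), 19 higher (0.123%) and 14 lower (0.0908%). Taken singly, WT had 6.55% of the tested genes higher and 4.83% lower, and App NL-G-F mice 3.18% higher and 7.67% lower. With such shares some genes meet the rule in unrelated genotypes too. The 33 were not shown to exceed that number, so the account of them below is a description and not a result about a shared response. Opposite ways by the same thresholds were found for 209 genes (1.35%), of which 180 were higher in treated WT and lower in treated App NL-G-F mice and 29 the reverse, a count added after the data were seen. The opposite count was 123 without veh-treated WT replicate 2, 127 without treated WT replicate 3 and 84 with the astrocyte marker score as a covariate. The 33 had a median absolute log2 fold change over both genotypes of 0.26, 2 exceeded 2-fold, and 31 were protein-coding. Because the rule itself requires the same sign in both genotypes, the low p over both genotypes of its members (0.000192 to 0.00632) is a description. Just inside the threshold were Hlx, Fbxo10 and Alkbh6, with a larger p of 0.0496, 0.0495 and 0.0493 in the weaker genotype, and just outside Plau, Txnip and Gpx3, with 0.0506, 0.0514 and 0.0535.

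**Figure D1:**
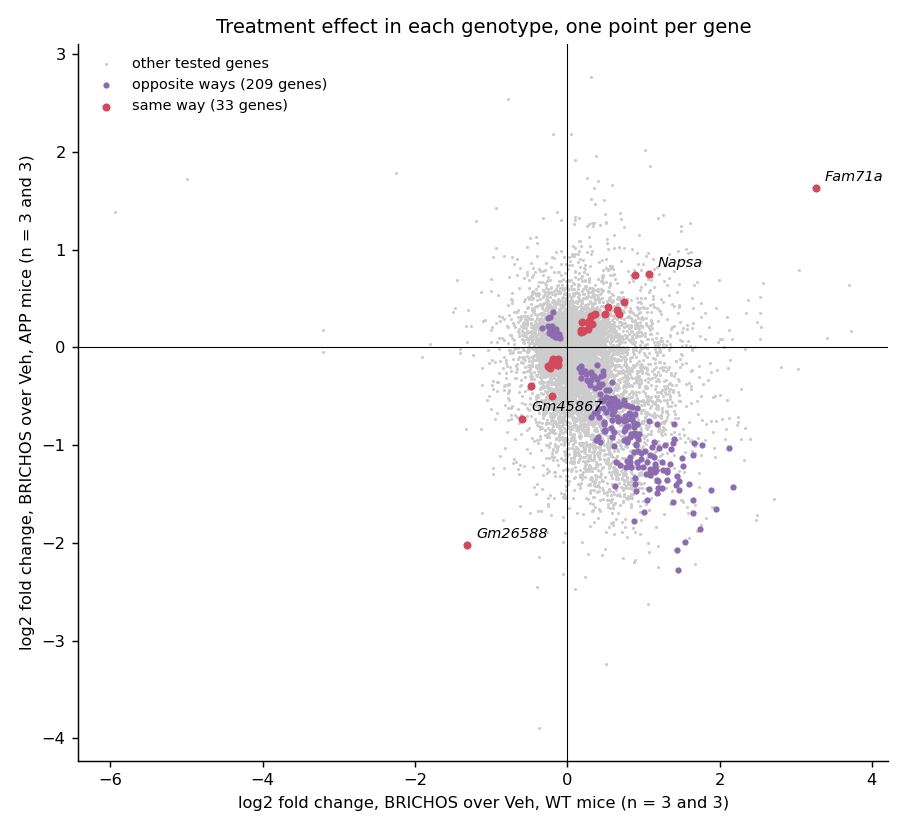
Log2 fold change of rh Bri2 BRICHOS R221E over veh in WT (x axis) and App NL-G-F mice (y axis), with 1 point per tested gene and 3 mice per group. The 33 genes that moved the same way lie to the lower left and upper right of the origin, and most of the 209 opposite genes lie at the lower right, higher in treated WT and lower in treated App NL-G-F mice.

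Fam71a, a gene of a Golgi-associated protein family known mainly from the testis, lies on chromosome 1 from 191162584 to 191164817 (GRCm38) and had the largest fold difference of the 33. Its levels were 0.0685, 0.534 and 0.671 CPM in veh-treated WT and 5.42, 3.10 and 3.89 CPM in treated WT mice. In App NL-G-F mice they were 0.324, 0.656 and 0.667 CPM with veh and 2.78, 1.60 and 0.680 CPM with treatment. All 6 treated mice lay above all 6 veh-treated mice, but the libraries held only 1 to 86 counts of it, and treated App NL-G-F replicate 3 had 9 counts, as had veh-treated WT replicates 2 and 3 and veh-treated App NL-G-F replicate 3. Over both genotypes the log2 fold change was 2.47 ± 0.47 (SE; unadjusted p = 0.000192, edgeR). Napsa, on chromosome 7 from 44572380 to 44586862, encodes the aspartic protease napsin A. It stood at 5.27, 3.38 and 4.02 CPM in veh-treated and 7.75, 8.45 and 10.5 CPM in treated WT mice, and at 1.10, 0.656 and 1.33 CPM and 1.94, 1.79 and 1.44 CPM in App NL-G-F mice. Treated and veh-treated mice did not overlap in either genotype, and the log2 fold change was 0.94 ± 0.18 (unadjusted p = 0.000217).

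Among the other higher genes were receptors and signalling proteins of myeloid cells. Ptger4, the EP4 receptor for prostaglandin E on chromosome 15 from 5206661 to 5244187, had 6.50, 9.43 and 8.72 CPM in veh-treated and 13.1, 14.1 and 14.1 CPM in treated WT mice. In App NL-G-F mice its levels were 39.7, 50.3 and 54.8 CPM with veh and 49.4, 83.3 and 66.5 CPM with treatment, so that the treated mouse of replicate 1 fell within the veh range. Its log2 fold change over both genotypes was 0.58 ± 0.14 (unadjusted p = 0.000941). The orphan G protein-coupled receptor Gpr157 was at 37.5, 41.8 and 42.6 CPM in veh-treated and 50.01, 49.2 and 49.4 CPM in treated WT mice, and at 82.5, 90.1 and 73.9 CPM and 102, 105 and 89.96 CPM in App NL-G-F mice. The WT groups did not overlap, and in App NL-G-F mice the lowest treated value lay just below the highest veh value. Kcnj2, the inward-rectifier potassium channel Kir2.1 of microglia, was separated in both genotypes, with 49.2, 43.9 and 50.3 against 52.8, 59.1 and 60.7 CPM in WT and 213, 229 and 254 against 256, 267 and 269.7 CPM in App NL-G-F mice. Its log2 fold change was 0.23 ± 0.053. Wfdc17, a small secreted protein with a whey acidic protein domain made by activated macrophages, differed by 0.50 ± 0.12 and Rab7b, a GTPase of late endosomes, by 0.26 ± 0.067. Ifi208, of the interferon-inducible PYHIN family, was separated in both genotypes at low levels (8 to 44 counts) and differed by 0.82 ± 0.19.

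Transcription and RNA handling were represented by Myc, Hlx, Nelfcd and Snrpf. The transcription factor Myc, on chromosome 15 from 61985391 to 61990374, had 71.3, 71.5 and 88.9 CPM in veh-treated and 108, 109 and 109 CPM in treated WT mice. With App NL-G-F, it had 78.7, 93.7 and 89.1 CPM with veh and 118, 129 and 84.9 CPM with treatment, and here treated replicate 3 lay within the veh range. The log2 fold change over both genotypes was 0.42 ± 0.10 (unadjusted p = 0.000843). Nelfcd, a subunit of the complex that holds RNA polymerase II near promoters, was at 26.02, 25.3 and 27.9 CPM and 30.8, 29.7 and 31.3 CPM in veh-treated and treated WT mice, and at 27.9, 29.3 and 26.3 CPM and 33.1, 30.9 and 29.8 CPM in App NL-G-F mice. All 6 treated mice were above all 6 veh-treated mice, although the log2 fold change was only 0.19 ± 0.047. Snrpf, a core protein of the spliceosome, differed by 0.28 ± 0.067 and the homeobox factor Hlx by 0.23 ± 0.062. Actr3b, a relative of the actin-nucleating protein Arp3, was far lower in WT (0.959, 1.13 and 1.64 CPM with veh, 1.39, 2.03 and 2.35 CPM with treatment) than in App NL-G-F mice (40.9, 42.1 and 41.4 CPM and 55.3, 50.2 and 56.3 CPM). Its App NL-G-F groups did not overlap while its WT groups did, and its log2 fold change was 0.45 ± 0.11. The galactosyltransferase gene B4galt3 (0.19 ± 0.039) and Nrbf2, a part of the lipid kinase complex that starts autophagy (0.32 ± 0.089), complete the 15 named by rule. The remaining 4, named after their values were seen, were Kynu, the kynureninase of tryptophan breakdown (0.46 ± 0.13), Zfp36l1, which directs mRNA decay (0.18 ± 0.049), the amino acid oxidase Il4i1 (0.35 ± 0.10) and Alkbh6 (0.17 ± 0.050).

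The 14 lower genes had smaller differences, apart from Gm26588 and Gm45867. Tjp1, the tight-junction scaffold ZO-1 on chromosome 7 from 65296165 to 65527781, had 376, 386 and 369.7 CPM in veh-treated and 349, 335 and 317 CPM in treated WT mice. In App NL-G-F mice it had 186, 188 and 184 CPM with veh and 164, 162 and 175 CPM with treatment. Neither genotype's groups overlapped, and the log2 fold change was -0.17 ± 0.034 (unadjusted p = 0.000342). Zyg11b (-0.15 ± 0.036), a substrate receptor of a cullin ubiquitin ligase, and Tubgcp4 (-0.14 ± 0.040), of the γ-tubulin ring complex, were lower in all 6 treated mice than in all 6 veh-treated mice. Regulators of actin, microtubules and cell shape were Rnd2 (-0.43 ± 0.11), a small GTPase, the actin nucleator Spire1 (-0.13 ± 0.034), the microtubule-associated Mtus1 (-0.12 ± 0.038) and Ccser2 (-0.18 ± 0.047). Ash1l, a histone H3 lysine methyltransferase, differed by -0.16 ± 0.039, Hyou1, a chaperone of the endoplasmic reticulum, by -0.15 ± 0.038, the herpesvirus entry mediator Tnfrsf14 by -0.22 ± 0.057 and the F-box protein gene Fbxo10 by -0.22 ± 0.067. The uncharacterized genes were Gm45867 (-0.66 ± 0.14) and Gm26588 (-1.73 ± 0.38), the latter annotated as antisense and covered by only 2 to 21 counts per library, so that reads from the gene on the other strand cannot be told apart without the strand setting of the counting, which is not given in the sources used here.

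In 21 of the 33 genes, the treated and veh-treated mice did not overlap in either genotype, which follows in part from the rule that chose them. Over all tested genes such separation the same way in both genotypes was seen for 78 (0.506%), 37 higher and 41 lower, and in opposite directions for 297 (1.93%). With 3 mice in a group some genes separate so without any treatment effect, and the 78 were not shown to exceed that number. All 6 treated mice stood apart from all 6 veh-treated mice in 12 genes (0.0778%), 8 higher and 4 lower. Beside Fam71a, Nelfcd, Zyg11b and Tubgcp4, these included Trappc6b (0.20 ± 0.047), a subunit of a vesicle-tethering complex, Cnga2 (0.90 ± 0.25), a cyclic nucleotide-gated channel listed at low levels of 0.205 to 1.15 CPM, Zfp697 (0.25 ± 0.073), the dynein adaptor Hook2 (0.17 ± 0.057), the antisense gene Gm11772 (0.29 ± 0.11), the mitochondrial ribosomal protein gene Mrps5 (0.11 ± 0.047) and the RNA methyltransferase gene Ftsj1 (-0.18 ± 0.061), all named after their values were seen. In each of these 7, the p missed the threshold in at least 1 genotype. Leaving out each library in turn, Gpr157, B4galt3 and Gm45867 stayed among the same-way genes in 12 of 12 fits and Tjp1 in 11, whereas Alkbh6 stayed in 1. All 33 kept an unadjusted p under 0.05 over both genotypes in each of the 12 fits (edgeR), which also follows in part from how they were chosen. The number of same-way genes itself ran from 23 to 76 and was 76 without treated WT replicate 1, 56 without veh-treated App NL-G-F replicate 3 and 54 without treated App NL-G-F replicate 3. It was 13 with the astrocyte and 13 with the choroid plexus marker score as a covariate, of which 6 and 9 were among the 33, and with DESeq2's size factors 28, split into 21 higher and 7 lower.

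**Figure D2:**
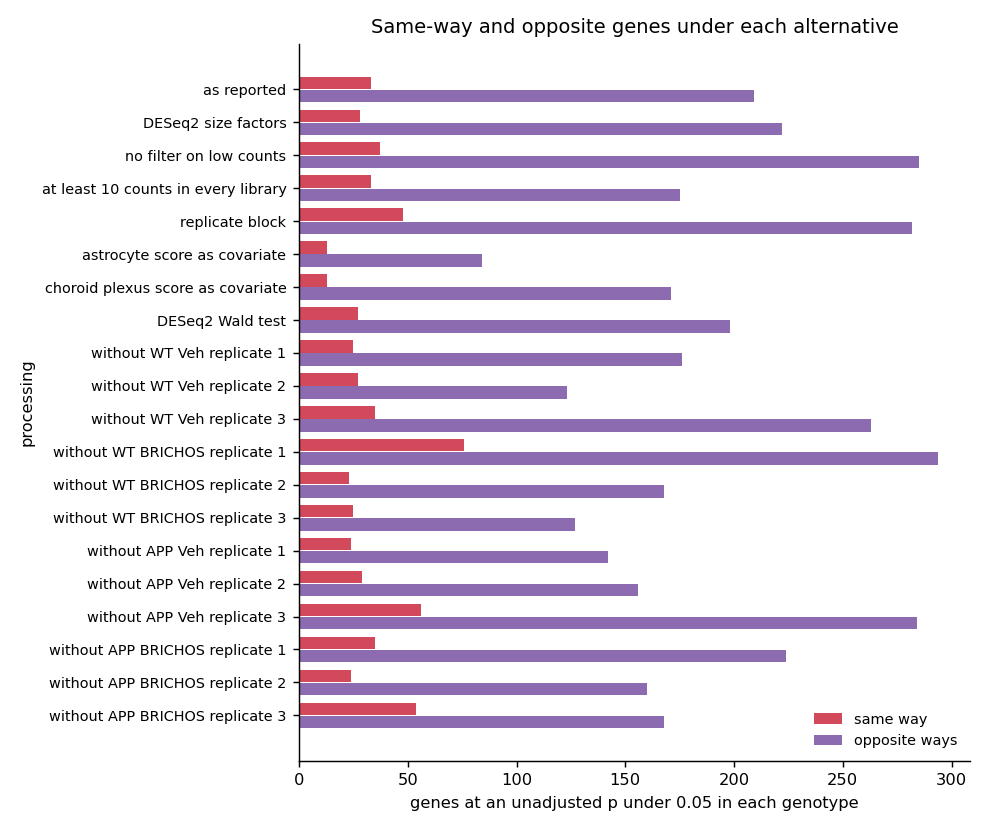
Number of genes (x axis) with an unadjusted p under 0.05 in each genotype and the same sign (red) or opposite signs (purple), as reported and under each alternative processing (y axis). Opposite genes outnumber same-way genes in every fit drawn, with the fewest same-way genes, 13, in the fits with a marker score as covariate.

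DESeq2's Wald test with genotype as a covariate called 8 genes at an adjusted p under 0.05, all of which had an adjusted p of 0.800 from edgeR. Of these, Gpr157 (adjusted p = 0.0398 from DESeq2), Actr3b (0.0398), Tjp1 (0.0398), Myc (0.0398) and Ptger4 (0.0454) are among the 33 described above. The others were Apoe (0.0398), Gpx3 (0.0398) and Cxcr4 (0.0481), of which the last 2 were named after their values were seen. Apoe, a lipid carrier that marks DAM, had 1698, 1673 and 1955 CPM in veh-treated and 2101, 2454 and 2411 CPM in treated WT mice. In App NL-G-F mice it had 18829.9, 19905 and 21324 CPM with veh and 21679.7, 24062 and 22870.2 CPM with treatment. Treated mice were above veh-treated mice in both genotypes without overlap, at a log2 fold change from edgeR of 0.39 ± 0.10 in WT and 0.19 ± 0.10 in App NL-G-F mice, where the unadjusted p of 0.0705 missed the threshold. Cxcr4, the receptor for the chemokine Cxcl12, was likewise separated in both, with 20.9, 23.8 and 24.1 against 30.8, 46.8 and 58.8 CPM in WT and 188, 187 and 165 against 195, 258 and 207 CPM in App NL-G-F mice. Its log2 fold change was 0.99 ± 0.19 in WT and 0.29 ± 0.18 in App NL-G-F mice. The difference of these effects had an unadjusted p of 0.0222 (adjusted p = 0.26, edgeR). Gpx3, a secreted glutathione peroxidase, had 9.72, 9.90 and 11.3 CPM in veh-treated and 16.5, 19.2 and 19.4 CPM in treated WT mice, which did not overlap, and 21.5, 22.1 and 29.6 CPM and 25.4, 30.6 and 33.9 CPM in App NL-G-F mice, which did. Its log2 fold change was 0.84 ± 0.15 in WT and 0.30 ± 0.14 in App NL-G-F mice.

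**Figure D3:**
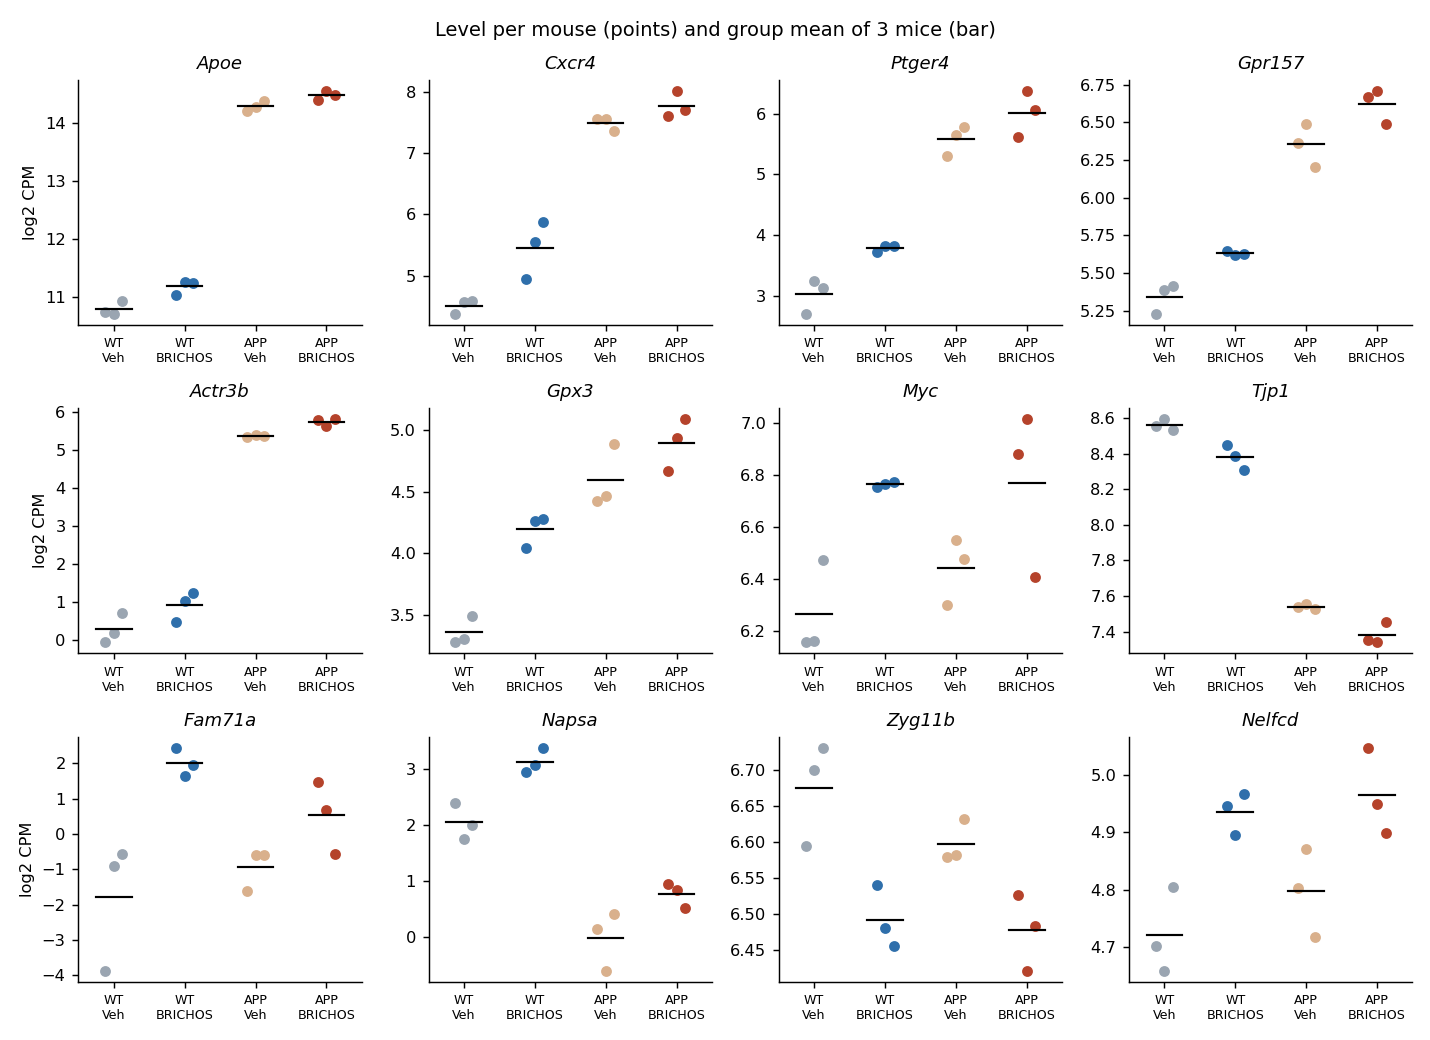
Log2 CPM per mouse (points) and the mean of 3 mice (bar) in the 4 groups for the 8 genes called by DESeq2 and for Fam71a, Napsa, Zyg11b and Nelfcd. Within each genotype the treated mean is higher than the veh mean in all panels except Tjp1 and Zyg11b, and for several genes, Apoe and Actr3b among them, the step between genotypes is larger than the step with treatment.

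Genes of antigen presentation on MHC class II were higher in treated mice over both genotypes, and their mean log2 CPM separated the treatments without overlap in WT only. The MHC class II molecule is a pair of chains, such as those encoded by H2-Aa and H2-Ab1. H2-Eb1 encodes 1 chain of another such pair, and whether its partner was made in these mice was not examined. Cd74, the invariant chain, guards the pair until peptides are loaded with the help of H2-DM. These genes share a promoter module, the S-X-Y module, which the factors RFX, CREB and NF-Y bind and which needs the coactivator Ciita. Of the 10 listed genes, 5 were higher and 0 lower over both genotypes (background 3.17% and 2.97%), with a median log2 fold change of 0.42 against -0.0024 over all tested genes, and 8 of 10 had fold changes above 0 in both genotypes. At an unadjusted p under 0.05, 5 were higher and 0 lower in WT (background 6.55% and 4.83%), and 1 was higher and 0 lower in App NL-G-F mice (background 3.18% and 7.67%). To show the module, 3 promoters are given from RefSeq (GRCm38.p6), each from 250 bases before to 50 after the gene's start, with the Y box core ATTGG (or its complement CCAAT) and the X1 box core AACNGATG in capitals, searched on both strands.
H2-Aa, chr17:34287774-34288073, minus strand: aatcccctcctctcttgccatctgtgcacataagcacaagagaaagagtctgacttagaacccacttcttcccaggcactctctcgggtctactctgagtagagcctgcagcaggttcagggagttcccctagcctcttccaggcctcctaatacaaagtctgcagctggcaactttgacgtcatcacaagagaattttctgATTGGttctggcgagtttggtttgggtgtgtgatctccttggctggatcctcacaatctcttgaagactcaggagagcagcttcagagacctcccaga
H2-Eb1, chr17:34305617-34305916, plus strand: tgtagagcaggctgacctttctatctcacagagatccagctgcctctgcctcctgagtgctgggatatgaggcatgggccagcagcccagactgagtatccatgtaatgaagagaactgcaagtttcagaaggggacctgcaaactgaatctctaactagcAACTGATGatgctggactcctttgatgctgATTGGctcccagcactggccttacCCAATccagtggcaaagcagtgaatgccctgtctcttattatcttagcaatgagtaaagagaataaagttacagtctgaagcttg
H2-DMb1, chr17:34152941-34153240, plus strand: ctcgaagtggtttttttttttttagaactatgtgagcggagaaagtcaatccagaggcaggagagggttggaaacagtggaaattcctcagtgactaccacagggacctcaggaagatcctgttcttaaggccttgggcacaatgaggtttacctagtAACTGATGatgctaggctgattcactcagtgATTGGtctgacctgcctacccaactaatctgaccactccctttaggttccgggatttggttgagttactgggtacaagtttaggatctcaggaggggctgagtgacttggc

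H2-Aa and H2-Eb1 are shown as members that were higher and H2-DMb1 as one that did not pass the test over both genotypes. The Y box core began 48 bases before the start in H2-Aa, 59 in H2-Eb1 (with its complement CCAAT at 35) and 61 in H2-DMb1, and the X1 box core 89 bases before it in H2-Eb1 and 92 in H2-DMb1, while the letters AACNGATG were not in the H2-Aa window. In 7 of the 10 listed genes with a promoter in the table, the Y box core was found in 7 and both cores in 3. Of all 32851 promoters of this length, 37.4% held the Y box core, 2.32% the X1 box core and 0.880% both. A match is a description of the letters and not of binding.

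Levels of the class II chains moved together across mice. H2-Aa had 114, 126 and 156 CPM in veh-treated and 207, 297 and 243 CPM in treated WT mice. In App NL-G-F mice it had 862, 518 and 824 CPM with veh and 817, 1392 and 728 CPM with treatment. The WT groups were separate, whereas in App NL-G-F mice only treated replicate 2 lay above the veh range. H2-Aa differed by 0.91 ± 0.26 (log2, unadjusted p = 0.00432, edgeR) in WT and by 0.41 ± 0.25 (unadjusted p = 0.129) in App NL-G-F mice. For H2-Eb1, levels were 99.4, 107 and 132 CPM and 174, 259 and 211 CPM in WT and 412, 264 and 419 CPM and 410.0, 725 and 377 CPM in App NL-G-F mice, with the same treated App NL-G-F mouse highest. Its log2 fold change was 0.69 ± 0.19 over both genotypes (unadjusted p = 0.00289). Cd74 showed the same order, with 317, 335 and 376 and 493, 701 and 570.5 CPM in WT and 2839, 1975 and 2798 and 2646, 4257 and 2531 CPM in App NL-G-F mice, and differed by 0.78 ± 0.21 and 0.31 ± 0.21 (log2) in the respective genotypes. H2-Ab1 differed by 0.64 ± 0.18 over both and H2-DMb2 by 0.38 ± 0.13. Ciita did not pass over both genotypes (0.45 ± 0.28, unadjusted p = 0.128), nor did H2-DMa (0.082 ± 0.072) or H2-DMb1 (0.091 ± 0.058). The members below the first 4 of the list were named after their values were seen. For no gene of the list did the effect differ between the genotypes at an unadjusted p under 0.05. Without treated App NL-G-F replicate 2 the log2 fold change over both genotypes was 0.55 for H2-Aa and 0.57 for H2-Eb1. Of the 10 genes, 5 or 6 were higher over both genotypes whichever library was left out. These fits include the WT mice, so they cannot show whether a rise within App NL-G-F mice remains without that replicate. Treated App NL-G-F replicates 1 and 3 lay within the veh range for H2-Aa and H2-Eb1. For the list's mean log2 CPM, the App NL-G-F median was 7.086 with treatment (7.05 to 7.58) and 7.092 with veh (6.65 to 7.18).

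**Figure D4:**
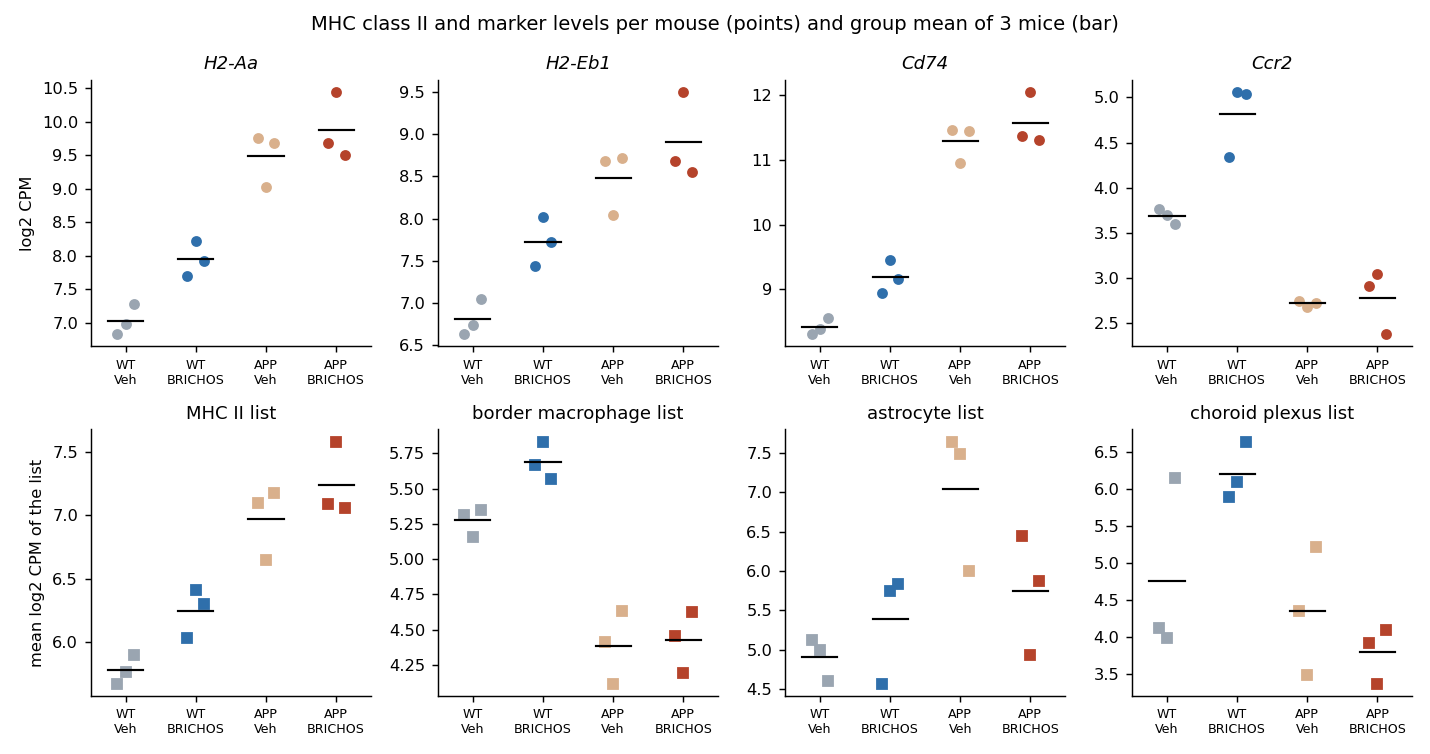
Upper row, log2 CPM of H2-Aa, H2-Eb1, Cd74 and Ccr2 per mouse (points) with the mean of 3 mice (bar). Lower row, mean log2 CPM of the MHC class II, border macrophage, astrocyte and choroid plexus lists. The MHC class II list is higher in all 3 treated WT mice, treated App NL-G-F replicate 2 stands above the others of its group, and the astrocyte list is high in veh-treated App NL-G-F replicates 1 and 2.

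Some markers of other myeloid and lymphoid cells were also higher in treated mice over both genotypes, whereas of 12 neutrophil markers 0 were called, with a median log2 fold change of -0.22. Among 12 markers of border-associated macrophages, which line the vessels and meninges and carry class II, 4 were higher and 0 lower over both genotypes (background 3.17% higher and 2.97% lower). By genotype, 7 were higher and 0 lower in WT, against 0 and 0 in App NL-G-F mice. Their summed level was 1543 to 1710.1 CPM in veh-treated WT, 1878 to 2074 in treated WT, 519.6 to 704 in veh-treated App NL-G-F and 506 to 643 in treated App NL-G-F mice. Their median log2 fold change was 0.43 in WT and 0.029 in App NL-G-F mice. Leaving out 1 library, the higher genes numbered 3 (without treated WT replicate 2 or veh-treated WT replicate 2 or veh-treated WT replicate 3) to 10 (without veh-treated App NL-G-F replicate 3). Pf4, a chemokine of these cells, had 18.7, 16.1 and 19.7 CPM and 26.96, 28.4 and 22.2 CPM in veh-treated and treated WT mice, and 9.39, 7.88 and 12.2 CPM and 11.7, 10.9 and 14.7 CPM in App NL-G-F mice. Only its WT groups were separate. The scavenger-type lectin Siglec1 differed by 0.75 ± 0.18 in WT and 0.21 ± 0.19 in App NL-G-F mice. The hyaluronan receptor Lyve1 differed by 0.68 ± 0.16 and 0.044 ± 0.17, respectively. Folr2, a folate receptor, followed with 0.34 ± 0.13 over both. For 12 monocyte markers, of which 3 were higher and 0 lower over both genotypes, the median was 0.88 in WT and -0.19 in App NL-G-F mice. Of these, 8 were higher and 0 lower in WT, against 0 and 1 in App NL-G-F mice. Their summed level was 996 to 1275 CPM in veh-treated WT, 1295 to 1826 in treated WT, 1274 to 1603 in veh-treated App NL-G-F and 1232 to 1746 in treated App NL-G-F mice. A sum follows its most abundant members, and Nr4a1 of this list is also on the immediate early list described below. Their mean log2 CPM was 2.63 to 3.55 in veh-treated WT and 3.42 to 4.57 in treated WT mice. In App NL-G-F mice it was 2.25 to 2.69 with veh and 2.04 to 2.76 with treatment. Ccr2, the receptor that brings monocytes out of the blood, had 13.6, 12.99 and 12.1 CPM in veh-treated and 20.3, 33.4 and 32.7 CPM in treated WT mice but 6.73, 6.43 and 6.59 CPM and 7.55, 8.25 and 5.21 CPM in App NL-G-F mice, and the difference of the effects was -1.07 ± 0.28 (unadjusted p = 0.0028, adjusted p = 0.168, edgeR). Spn differed by 0.47 ± 0.19 and Nr4a1 by 0.29 ± 0.13. Of 10 tested B cell markers, 2 were higher and 0 lower over both genotypes, among them the immunoglobulin light chain gene Igkc (1.23 ± 0.51). By genotype, 4 of these markers were higher and 0 lower in WT, against 1 and 1 in App NL-G-F mice. Their mean log2 CPM differed by 0.88 in WT and -0.017 in App NL-G-F mice. Over the 12 fits without 1 library, the higher genes numbered 1 (without treated WT replicate 3 or veh-treated WT replicate 1) to 4 (without treated App NL-G-F replicate 1) for monocytes and 1 to 4 (without treated App NL-G-F replicate 3) for B cells, and Igkc differed by 0.75 without treated WT replicate 2. Whether cells of these types took part in the class II values was not tested.

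Some genes of activated microglia were higher by small steps over both genotypes. Of 26 DAM genes, 6 were higher and 0 lower (background 3.17% higher and 2.97% lower), with medians of -0.048 in WT and 0.16 in App NL-G-F mice. Within the genotypes, 5 were higher and 1 lower in WT, against 3 and 0 in App NL-G-F mice. Beside Apoe, the receptor tyrosine kinase Axl differed by 0.18 ± 0.055, the lysozyme gene Lyz2 by 0.16 ± 0.056 and Igf1 by 0.21 ± 0.078. Axl had 66.1, 65.4 and 74.2 CPM in veh-treated and 74.6, 80.99 and 86.7 CPM in treated WT mice, and 732, 732 and 826 CPM and 794, 834 and 885 CPM in App NL-G-F mice, so that only the WT groups were separate. Interferon-stimulated genes were higher in 7 of 48 cases and lower in 0, with a median of 0.11 over both genotypes. Taken by genotype, 6 were higher and 1 lower in WT, against 1 and 1 in App NL-G-F mice. The median was 0.17 without veh-treated App NL-G-F replicate 1, 0.063 without veh-treated App NL-G-F replicate 2 and 0.068 without treated WT replicate 3. Slfn5 had 32.9, 35.5 and 30.3 CPM and 37.2, 41.2 and 48.9 CPM in WT, and 66.2, 49.5 and 57.8 CPM and 80.1, 65.5 and 62.5 CPM in App NL-G-F mice, a log2 fold change of 0.31 ± 0.092. The antiviral synthetase Oas3 differed by 0.71 ± 0.21, the PYHIN gene Ifi203 by 0.48 ± 0.15, with 0.88 ± 0.12 in WT and 0.017 ± 0.13 in App NL-G-F mice (unadjusted p of the difference 0.000369, adjusted p = 0.153, edgeR), and the membrane protein gene Ifitm3 by 0.26 ± 0.095. Immediate early genes, which also respond to tissue digestion, were higher in 5 of 30 and lower in 0, with medians of 0.14 in WT and 0.15 in App NL-G-F mice. Of the 30, 5 were higher and 0 lower in WT, against 1 and 0 in App NL-G-F mice. Ppp1r15a differed by 0.34 ± 0.11, Ier3 by 0.42 ± 0.15, Btg2 by 0.24 ± 0.094 and Socs3, a brake on cytokine signalling, by 0.21 ± 0.086. With 1 library left out, the higher genes numbered 4 to 9 (without treated WT replicate 1) for DAM, 4 (without veh-treated App NL-G-F replicate 2 or treated WT replicate 3 or veh-treated WT replicate 2) to 13 (without veh-treated App NL-G-F replicate 1 or treated WT replicate 1) for interferon-stimulated and 2 (without treated WT replicate 3 or veh-treated WT replicate 1) to 8 (without treated App NL-G-F replicate 1) for immediate early genes. All libraries went through the papain digestion, and the part of the digestion in these values was not tested.

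Cytokines, chemokines and feedback genes of NF-κB were higher in 4 of 35 and lower in 0 (background 3.17% higher and 2.97% lower). Of the 35, 4 were higher and 0 lower in WT, against 2 and 1 in App NL-G-F mice. Ccl7, a chemokine for monocytes, had 18.1, 15.8 and 22.1 CPM in veh-treated and 29.5, 42.02 and 26.4 CPM in treated WT mice, but overlapping levels of 10.04, 9.58 and 9.48 CPM and 14.01, 13.3 and 8.69 CPM in App NL-G-F mice. Il10, the anti-inflammatory cytokine, differed by 1.02 ± 0.36 at 7 to 73 counts per library, Cxcl2 by 0.37 ± 0.16 and Ccl9 by 0.21 ± 0.077. Of 28 phagocytosis receptors, 6 were higher and 3 lower. Of the 28, 6 were higher and 4 lower in WT, against 2 and 3 in App NL-G-F mice. The inhibitory receptor Lilrb4a differed by 0.85 ± 0.13 in WT and 0.11 ± 0.12 in App NL-G-F mice. The integrin chain Itgav differed by -0.16 ± 0.056 over both. Oxidative stress targets of Nfe2l2 (NRF2) were higher in 4 of 22 and lower in 0, namely Gpx4 (0.12 ± 0.037), which removes lipid peroxides, Gpx1 (0.18 ± 0.071), the heme oxygenase gene Hmox1 (0.54 ± 0.22) and thioredoxin, Txn1 (0.13 ± 0.057). Of the 22, 0 were higher and 0 lower in WT, against 1 and 3 in App NL-G-F mice. The mean log2 CPM of the list differed by 0.12 in WT and -0.079 in App NL-G-F mice, while both medians lay above 0. In 4 of 22 genes the effect was lower in App NL-G-F mice at an unadjusted p under 0.05. Hmox1 had 132, 169 and 122 CPM and 245, 161 and 220.3 CPM in WT, and 139, 143 and 117 CPM and 124, 325 and 122 CPM in App NL-G-F mice, where treated replicate 2 alone was high, and over both genotypes it differed by 0.28 without treated App NL-G-F replicate 2. Nuclear genes of oxidative phosphorylation were higher in 8 of 82 and lower in 0, by small steps such as 0.23 ± 0.071 for Cox5a and 0.12 ± 0.044 for Cox6c. Of the 82, 11 were higher and 0 lower in WT, against 2 and 0 in App NL-G-F mice. The mean log2 CPM of these genes differed by 0.15 in WT and -0.0067 in App NL-G-F mice. In 7 of 82 genes the effect was lower in App NL-G-F mice at an unadjusted p under 0.05. Over the 12 fits without 1 library, the higher genes numbered 3 to 8 (without treated App NL-G-F replicate 3) for the cytokine list, 1 (without veh-treated App NL-G-F replicate 3 or treated WT replicate 3) to 5 (without treated App NL-G-F replicate 1 or treated App NL-G-F replicate 3) for the NRF2 list and 2 (without veh-treated WT replicate 1) to 15 (without veh-treated App NL-G-F replicate 1) for the oxidative phosphorylation list. For phagocytosis receptors, higher genes numbered 4 (without veh-treated App NL-G-F replicate 2 or veh-treated WT replicate 1) to 7 (without treated App NL-G-F replicate 2 or veh-treated App NL-G-F replicate 3 or veh-treated WT replicate 3), and lower genes 1 (without veh-treated WT replicate 2) to 3 (without veh-treated App NL-G-F replicate 1 or treated WT replicate 3 or veh-treated WT replicate 1).

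A few genes of protein folding and amino acid supply were lower over both genotypes. In the unfolded protein response of the endoplasmic reticulum, 4 of 22 genes were lower and 0 higher (background 3.17% higher and 2.97% lower), while the median was 0.0017. Within each genotype, 0 were higher and 3 lower in WT, against 3 and 2 in App NL-G-F mice. The medians were -0.040 and 0.034. Hyou1 had 129.9, 134 and 129.7 CPM in veh-treated and 117, 125 and 121 CPM in treated WT mice, and 153, 159.6 and 145 CPM and 126, 141 and 136 CPM in App NL-G-F mice, without overlap in either. Its companions were Sel1l (-0.10 ± 0.041) and Syvn1 (-0.10 ± 0.043), partners in the disposal of misfolded proteins, and the stress sensor Ern1 (-0.082 ± 0.037). Of 19 tested targets of the integrated stress response, 3 were lower and 0 higher, at a median of -0.12, which was -0.064 without veh-treated App NL-G-F replicate 1. Of the 19, 0 were higher and 2 lower in WT, against 0 and 2 in App NL-G-F mice. Slc7a5, a transporter of large neutral amino acids, had 119, 119 and 113 CPM and 103, 92.4 and 90.9 CPM in WT, and 84.5, 83.2 and 67.3 CPM and 70.1, 71.5 and 71.8 CPM in App NL-G-F mice, where 1 veh-treated mouse lay below all treated ones. Ddit4, an inhibitor of mTOR signalling, differed by -0.23 ± 0.094 and the factor Atf5 by -0.27 ± 0.11. With 1 library left out, the lower genes numbered 1 (without treated WT replicate 3) to 3 in the unfolded protein response and 1 (without treated App NL-G-F replicate 1 or veh-treated App NL-G-F replicate 1) to 4 in the integrated stress response, and Sel1l differed by -0.063 without treated App NL-G-F replicate 2 and Atf5 by -0.16 without veh-treated App NL-G-F replicate 1.

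Homeostatic microglial identity showed no call over both genotypes, with 0 of 15 genes higher or lower and medians of -0.11 in WT and 0.092 in App NL-G-F mice. P2ry12 differed by -0.042 ± 0.045, Cx3cr1 by -0.049 ± 0.056, Siglech by 0.056 ± 0.063 and Gpr34 by -0.061 ± 0.055. App itself differed by 0.021 ± 0.11 (unadjusted p = 0.849), and Itm2b, which encodes the endogenous Bri2, by 0.037 ± 0.048 (unadjusted p = 0.461). Itm2b had 2538, 2828 and 2726 CPM in veh-treated and 2542, 2714 and 2676 CPM in treated WT mice, and 3462, 3368 and 3414 CPM and 3650.4, 3698 and 3648 CPM in App NL-G-F mice, where the groups did not overlap. Among 8 tested genes of BRICHOS proteins and their processing, 0 were higher and 2 lower (background 3.17% higher and 2.97% lower), Sppl2a (-0.10 ± 0.032), a protease that cleaves Bri2 in the membrane, and Itm2a (-0.39 ± 0.14), which endothelial cells also express. Trem2, the lipid-sensing receptor of DAM, differed by 0.022 ± 0.068 over both. Its levels were 852, 935 and 964 CPM and 779, 848 and 902 CPM in WT, which overlapped, and 2417, 2552 and 2619 CPM and 2636, 2934 and 2939 CPM in App NL-G-F mice, which did not. Ide, the insulin-degrading enzyme that also cleaves Aβ, passed over both genotypes (0.27 ± 0.11, unadjusted p = 0.0324), but its genotypes went apart. WT mice had 46.2, 50.00 and 47.5 CPM with veh and 65.8, 68.6 and 83.9 CPM with treatment, and App NL-G-F mice 60.02, 62.9 and 61.2 CPM and 58.4, 59.4 and 57.8 CPM, so that treated mice lay above in WT and below in App NL-G-F mice. Of 60 gene lists examined, the mean level of 0 separated treated from veh-treated mice the same way in both genotypes, and 34 lists had medians of opposite sign.

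**Figure D5:**
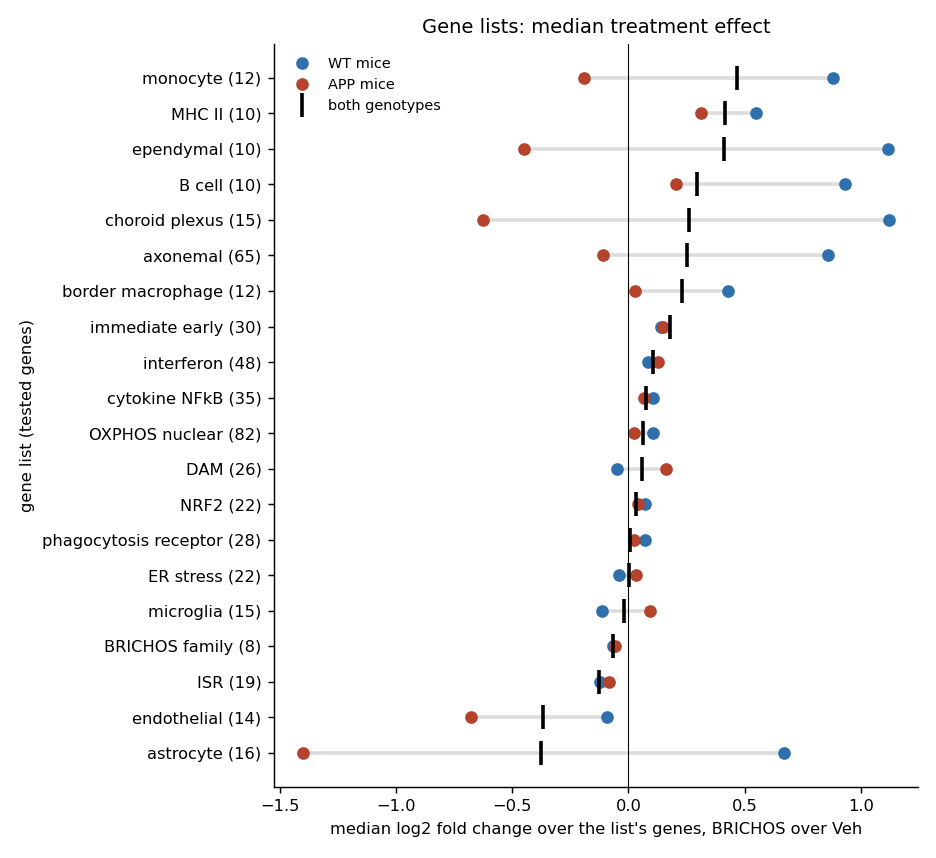
Median log2 fold change of rh Bri2 BRICHOS R221E over veh (x axis) over the tested genes of each described list (y axis, number of genes in brackets), in WT (blue), App NL-G-F (red) and both genotypes (black tick). MHC class II, immediate early and interferon lists have medians above 0 in both genotypes, while the astrocyte, choroid plexus and ependymal lists lie above 0 in WT and below 0 in App NL-G-F mice.

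Markers of cells outside the immune system moved with the treatment as well, for several types in opposite directions in the genotypes. Of 14 endothelial markers, 8 were lower and 0 higher over both genotypes (background 3.17% higher and 2.97% lower). Of the 14, 0 were higher and 0 lower in WT, against 0 and 13 in App NL-G-F mice. The medians were -0.093 in WT and -0.68 in App NL-G-F mice. The tight-junction gene Cldn5 had 80.9, 102 and 77.9 CPM in veh-treated and 99.7, 67.2 and 64.7 CPM in treated WT mice, which overlapped, and 43.97, 63.6 and 41.3 CPM and 34.7, 30.5 and 31.4 CPM in App NL-G-F mice, which did not. Over the 12 fits without 1 library, the lower genes numbered 3 (without treated App NL-G-F replicate 2) to 13 (without treated WT replicate 1). The receptor Tie1 differed by -0.47 ± 0.15, the efflux pump gene Abcb1a by -0.45 ± 0.15 and Itm2a by -0.39 ± 0.14. Tjp1, among the 33 same-way genes, is likewise known from endothelial junctions, and the summed level of the 14 markers was 1199 to 1257 CPM in veh-treated WT, 1050.3 to 1479.7 in treated WT, 689 to 911 in veh-treated App NL-G-F and 493 to 582 in treated App NL-G-F mice. Their part in the Tjp1 value was not tested. Astrocyte markers had medians of 0.67 in WT and -1.40 in App NL-G-F mice. Gfap (-0.79 ± 0.30) was the 1 of 16 that was lower over both, a share not far from the background. By genotype, 0 were higher and 0 lower in WT, against 0 and 16 in App NL-G-F mice. The 15 choroid plexus markers had medians of 1.12 and -0.62, with 0 called, and of 10 tested ependymal markers, with medians of 1.12 and -0.45, 3 were higher, among them the dynein chain gene Dynlrb2 (1.04 ± 0.28). Of 65 tested genes of ciliary axonemes, 6 were higher and 0 lower, with medians of 0.86 and -0.11. Of the 65, 32 were higher and 0 lower in WT, against 0 and 5 in App NL-G-F mice. Without 1 library, the higher genes numbered 1 (without treated WT replicate 3) to 6 (without veh-treated App NL-G-F replicate 1) for ependymal markers and 3 (without treated WT replicate 2 or treated WT replicate 3 or veh-treated WT replicate 1) to 12 (without treated App NL-G-F replicate 1 or veh-treated App NL-G-F replicate 1) for axonemal genes.

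The difference of the effects between the genotypes was tested directly. It passed at an unadjusted p under 0.05 in 2279 genes (14.8%), 1472 with a lower and 807 with a higher effect in App NL-G-F mice, and after adjustment in 1 gene (0.00648%). Without the filter on low counts edgeR called 107 genes after adjustment, and DESeq2's Wald test with the filter 244. This gene was Cald1, which encodes the actin-binding protein caldesmon of smooth muscle and pericytes. It had 27.8, 26.2 and 27.3 CPM in veh-treated and 36.97, 34.1 and 37.2 CPM in treated WT mice, and 18.3, 20.4 and 18.8 CPM and 12.8, 10.8 and 11.6 CPM in App NL-G-F mice, separate in both and in opposite directions. The difference was -1.12 ± 0.11 (log2, adjusted p = 0.00834, edgeR), and over both genotypes the effects averaged to -0.12 ± 0.17. Next by p were Usp39, Lrp8, Itsn1 and Ahnak, each with an adjusted p of 0.134 from edgeR. The count of genes with an adjusted difference was 0 without veh-treated WT replicate 2 or treated App NL-G-F replicate 3 and with either marker score as covariate, but 62 without veh-treated WT replicate 3 and 88 without veh-treated App NL-G-F replicate 3.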

How the data were processed

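The deposited table holds whole-number read counts per gene for all 12 libraries, made by the authors with STAR and featureCounts (1.5.1 per the submitters' processing notes) on GRCm38, without normalization. The library kit preserved strand, and the strand setting of the counting is not given in the sources used here. GENCODE M21 gave a symbol to 55141 of 55487 gene identifiers, and 26314 genes had no count in any library. Groups were taken from the sample labels. In the model of 4 group means, p-values are set against the spread between the 3 mice of a group. In the fit over both genotypes, with genotype as a covariate, differences of the treatment effect between the genotypes enter that spread too. With the contrasts of the 4 group means averaged instead, the lowest adjusted p over both genotypes was 0.528 (edgeR). Libraries of a group differed by more than counting noise (chi-square per degree of freedom 5.84 to 34.5), so that none was counted as a duplicate.

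Counts were analysed with edgeR 4.0.16 in R 4.3.3 after a filter on low counts (filterByExpr, minimum count 10), which kept 15425 genes, with TMM factors (0.874 to 1.10) and a quasi-likelihood test, Benjamini-Hochberg adjusted over all tested genes. The effect over both genotypes came from an additive model of genotype and treatment, and the effects in each genotype and their difference from a model of 4 group means. CPM values of single genes and the mean log2 CPM of lists are scaled by TMM. The summed marker levels and the floor of 3 counts are scaled to the total count of the library alone. Errors of log2 fold changes are standard errors. The scripts were tested on simulated data, and figures were drawn with Python 3.11.15 and matplotlib 3.10.9. Alternatives were DESeq2 1.42.0 (Wald test, or its size factors in edgeR), limma-voom 3.58.1, 4 group means averaged, no filter or at least 10 counts in every library, the replicate number as a block, an astrocyte or choroid plexus marker score as covariate, a 2-fold cutoff, and leaving out each library.

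The genes and gene lists were chosen with earlier results of these data known. Named by rule were up to 15 same-way genes in each direction, App, Itm2b, Trem2, Apoe and Ide, up to 4 members with the lowest p of each list described, and the 5 genes with the lowest p of the difference. Replicate numbers were not used to pair the libraries in the main fits, and whether they mark a pairing is not known. The deviations of equal-numbered libraries from their group means correlated by -0.11 to 0.26, and 9 of 18 pairs were over 0.1. Promoter sequences were read from a RefSeq table (GRCm38.p6). Values of some genes that passed these rules are not reported here.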

Additional observations from a re-analysis of the deposited data

Results flagged for a closer look

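The treatment effect differed between the genotypes, as App NL-G-F minus WT on the log2 scale, by -1.12 for Cald1, the only gene past the adjusted threshold (adjusted p = 0.00834, edgeR). Another 5 genes missed that threshold, each with an adjusted p of 0.134 from edgeR, namely Lrp8 (-1.32), an apolipoprotein E receptor, Ahnak (-1.02), a large scaffold protein, Itsn1 (-0.71), an endocytic adaptor, Ide (-0.67) and the splicing factor Usp39 (0.56). These 5 genes were listed because their treated and veh-treated mice were separate in both genotypes, in opposite directions, so that the separation is no result about them. Cald1 was separate in opposite directions as well, and over all tested genes this held for 297 (1.93%).

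For 7 gene lists the mean log2 CPM was higher in all 3 treated than in all 3 veh-treated WT mice and lower in all 3 treated than in all 3 veh-treated App NL-G-F mice. The difference was not tested. Ependymal markers differed by 0.995 in WT and -0.29 in App NL-G-F mice, a difference of -1.28, and collagen genes by 0.63 and -0.46, a difference of -1.09. Mural cell markers differed by 0.41 and -0.49 (difference -0.90) and voltage-gated and potassium channel genes by 0.37 and -0.38 (difference -0.74). Circadian clock genes differed by 0.22 and -0.19 (difference -0.41), iron genes by 0.11 and -0.20 (difference -0.31) and septin and myosin genes by 0.16 and -0.14 (difference -0.30). None of the 60 lists was separate in this way with the opposite signs, and the levels of other cells' markers differed between the same groups.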

How the results depend on the processing

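Over both genotypes, edgeR gave 0 genes after adjustment under every alternative run with it, also with each library left out (lowest adjusted p 0.161), limma-voom gave 0 (lowest adjusted p 0.295), and DESeq2's Wald test gave 8. The unadjusted count of 947 became 57 with a 2-fold cutoff and ran from 693 to 1277 with 1 library left out. The same-way count of 33 became 13 with the astrocyte and 13 with the choroid plexus score as covariate, and 23 to 76 with 1 library left out, with 10 to 24 of the 33 among them. The difference count of 1 became 107 without a filter on low counts, 244 with DESeq2's Wald test, 0 with either marker score and 0 to 88 with 1 library left out. The opposite count of 209, whose alternatives were chosen after seeing the data, became 84 with the astrocyte score and 123 to 294 with 1 library left out. In the fit with a replicate block, the same-way count was 48 (29 higher, 19 lower), the unadjusted count 1016, the opposite count 282 and the difference count 1. Whether the replicate numbers mark a pairing is not known (mean correlation of deviations 0.096 for equal and -0.047 for other numbers). Of 100 named genes called over both genotypes, 75 kept the call with each library left out, 25 lost it in at least 1 of the 12 fits, and Mrps5 kept it in only 2. Signs turned for genes near 0. With 1 library left out, App ran from -0.071 (without treated WT replicate 1) to 0.080, and was -0.023 without veh-treated WT replicate 3 and -0.024 without treated App NL-G-F replicate 1. Trem2 ran from -0.0067 (without treated App NL-G-F replicate 3) to 0.061, and was -0.0077 with the astrocyte score, and Cald1 was 0.029 with limma-voom. Usp39 ran from -0.023 (without veh-treated App NL-G-F replicate 3) to 0.061, was below 0 in 4 more of these fits at -0.0029 to -0.014, and was -0.026 with the astrocyte score. The cause of these shifts was not tested. With 3 mice in a group, genes near the detection limit of 3 counts have folds that a few reads decide.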

Other observations

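Other programs of microglia showed few calls over both genotypes, beside a background of 3.17% higher and 2.97% lower. Of 20 genes of antigen presentation on MHC class I, 0 were higher or lower (median log2 fold change 0.029), and the same held for 20 complement genes (0.016), 9 tested Fc receptor genes (0.084), 38 proteasome subunit genes (0.038) and 24 glycolytic enzyme genes (-0.0091), all by edgeR at an unadjusted p under 0.05. Of 74 genes of lysosomal enzymes and the proton pump, 2 were higher and 0 lower (0.019), of 42 autophagy genes 0 were higher and 1 lower (-0.012), and of 25 genes of cholesterol synthesis 1 was higher and 0 lower (0.056). Toll-like receptors and their adaptors had 0 higher and 2 lower of 25 (-0.026). Such averages can hide opposite effects. Of the glycolytic genes, 3 were higher and 1 lower in WT, against 0 and 5 in App NL-G-F mice. These counts were 3 and 3 against 0 and 3 for complement and 0 and 0 against 4 and 0 for proteasome genes. They were 1 and 2 against 5 and 0 for lysosomal and 1 and 4 against 1 and 1 for Toll-like receptor genes. Backgrounds were 6.55% and 4.83% in WT and 3.18% and 7.67% in App NL-G-F mice.

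Several lists with 0 or 1 called gene each had medians of opposite sign in the genotypes. Meningeal and perivascular fibroblast markers had a median log2 fold change of 1.02 in WT and -0.089 in App NL-G-F mice, oligodendrocyte precursor markers of 0.77 and -0.35, and clustered protocadherin genes, which neurons express, of 0.23 and -0.43. Of 4 tested T and natural killer cell markers, 0 were called, and both medians lay above 0, at 0.46 and 0.15.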
